A study of Drosophila melanogaster with 4 samples.

Results

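The histone genes of the fly were followed in RNA from brains of wandering L3 larvae (WL3). Members were taken by FlyBase symbol: genes of the histone cluster, whose symbols start with *His1:*, *His2A:*, *His2B:*, *His3:* or *His4:*, and the variant genes *His2Av*, *His3.3A*, *His3.3B* and *His4r*. This gave 115 of 23932 counted features, namely 111 cluster copies (23 H1, 20 H2A, 23 H2B, 23 H3 and 22 H4) and 4 variants. The RNA came from larvae in which *insc*-GAL4, a driver of the neuroblast lineage, expressed an RNAi hairpin against *white*, an eye color gene used as the control, or against *orb2*, which encodes an RNA-binding protein. Every larva of both groups carried the driver and a hairpin. Each group had 2 libraries, each made from a pool of 60 brains dissected in batches of 20, and whole brains were sequenced, so cells outside the driver's lineage are included. Samples are named by their labels throughout, because the targeted gene goes against them. Replicates 1 and 2 of the *white* label had *orb2* at 17.1 and 15.3 CPM (counts scaled to a common library size), while both libraries of the *orb2* label had more of it, 105.3 and 53.6 CPM (log2 fold change 2.29, standard error 0.394, adjusted p = 0.9998 in edgeR's test). Whether exchanged labels or reads from the hairpin itself bear on this was not tested, and every direction given here is that of the labels.

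The 4 libraries held 34610836 to 75412298 counted reads, with the fewest in replicate 2 labelled *white* RNAi. Tissue labels were checked with marker genes. The 10 neuron markers summed to 2501 to 4401 CPM and the 7 neuroblast markers to 506.0 to 607.3 CPM, and all 17 were tested. Genes of other tissues were present too. The sum of 9 muscle genes was 161.0 and 333.3 CPM under the *white* label and 712.8 and 637.8 CPM under the *orb2* label, and that of 3 cuticle genes was 51.7 and 2.26, against 157.4 and 138.8 CPM. None of these genes was called in edgeR's test, and the muscle genes *Prm*, *up* and *Mhc* had an unadjusted p under 0.05. The labels number the samples of a group without saying whether they came from separate crosses or days, so p-values measure the spread between these libraries, which may be technical.

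Histones package DNA into nucleosomes. The core histones H2A, H2B, H3 and H4 form the particle around which DNA is wound, and H1 binds the DNA that links one particle to the next. In flies the genes for these proteins sit in a tandem array of repeat units on chromosome arm 2L, lack introns and are transcribed mainly in S phase, when new DNA needs new nucleosomes. Their mRNAs normally end in a stem-loop in place of a poly(A) tail. The variants are single genes outside the array, are expressed outside S phase as well and give polyadenylated mRNAs. His2Av takes the roles of both H2A.Z and H2A.X, H3.3 from *His3.3A* and *His3.3B* replaces H3 at transcribed chromatin, and *His4r* encodes the same H4 protein as the cluster. The RNA was labelled as poly(A)-selected, so reads on cluster copies do not measure the amount of stem-loop mRNA.

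By the BDGP6.54 gene models (Ensembl release 115), cluster copies span 2L from 21416953 to 21541681, in 23 repeat units that each start at an H1 gene. Of these units, 19 hold all 5 types and 4 hold 4. Each cluster copy is annotated as a single exon, of 1023 bases for H1, 595 for H2B, 529 for H3, 476 to 493 for H2A and 412 to 528 for H4. *His2Av* (FBgn0001197) lies on 3R from 26866929 to 26869220 on the plus strand, with 1224 exon bases in 4 blocks. *His4r* (FBgn0013981) lies on 3R from 14625755 to 14626614 on the plus strand, with 796 exon bases. *His3.3A* (FBgn0014857) lies on 2L from 5055058 to 5056149 on the plus strand, and *His3.3B* (FBgn0004828) on X from 9152523 to 9156669 on the minus strand. *His3.3A* shares 168 of its 1002 exon bases with *Nepl3* on the opposite strand, which was counted 1003 to 2690 times, and without strand the reads of the shared bases cannot be told apart. The other 3 variants share no exon base with another annotated feature. Each of the 20 H2A copies shares 36 exon bases with another annotated feature, whose counts are not given here.

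All 4 variants were abundant in every library. *His3.3B* had the most reads, with 2094 and 2524 CPM under the *white* label (replicates 1 and 2 in this order here and in what follows) and 2186 and 1800 CPM under the *orb2* label. *His4r* had 787.3 and 1718 CPM under the *white* label, against 834.8 and 869.2 CPM. *His2Av* had 612.8 and 900.2 CPM, against 700.7 and 694.5 CPM. Replicate 2 labelled *white* RNAi was the highest library for each of these genes, and the groups overlapped. *His3.3A* followed the same pattern, at 352.0 and 784.3 CPM under the *white* label and 423.8 and 430.9 CPM under the *orb2* label. Per kilobase of exon the order of levels changed, since *His3.3B* is the longest. *His4r* was then highest in all 4 libraries, at 989.1 to 2159 CPM per kilobase, and *His3.3B* followed at 705.4 to 989.0. *His2Av* stood at 500.7 to 735.5 and *His3.3A* at 351.3 to 782.7 CPM per kilobase. These last ranges overlap, and in replicate 2 labelled *white* RNAi *His3.3A* lay above *His2Av*.

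Cluster copies drew far fewer counted reads, and reads that fit several copies may not be among them. A single copy reached at most 3.23 CPM in any library, and all 111 copies together took 0.00489% (95% exact binomial interval 0.00472 to 0.00507) and 0.0159% (0.0155 to 0.0163) of the reads in replicates 1 and 2 labelled *white* RNAi. In replicates 1 and 2 labelled *orb2* RNAi they took 0.00577% (0.00560 to 0.00594) and 0.00785% (0.00762 to 0.00808). These intervals cover counting error only, since reads are not independent molecules. The 4 variants took 0.389% to 0.562% of the reads. Summed over copies and divided by exon length, H4 was the highest cluster type in every library, at 36.0 and 116.3 CPM per kilobase under the *white* label and 45.6 and 49.8 under the *orb2* label. *His4r* in the same libraries was at 989.1, 2159, 1049 and 1092 CPM per kilobase, so per kilobase the single variant gene lay above the sum of the 22 cluster copies for the same protein in every library.

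**Figure D1:**
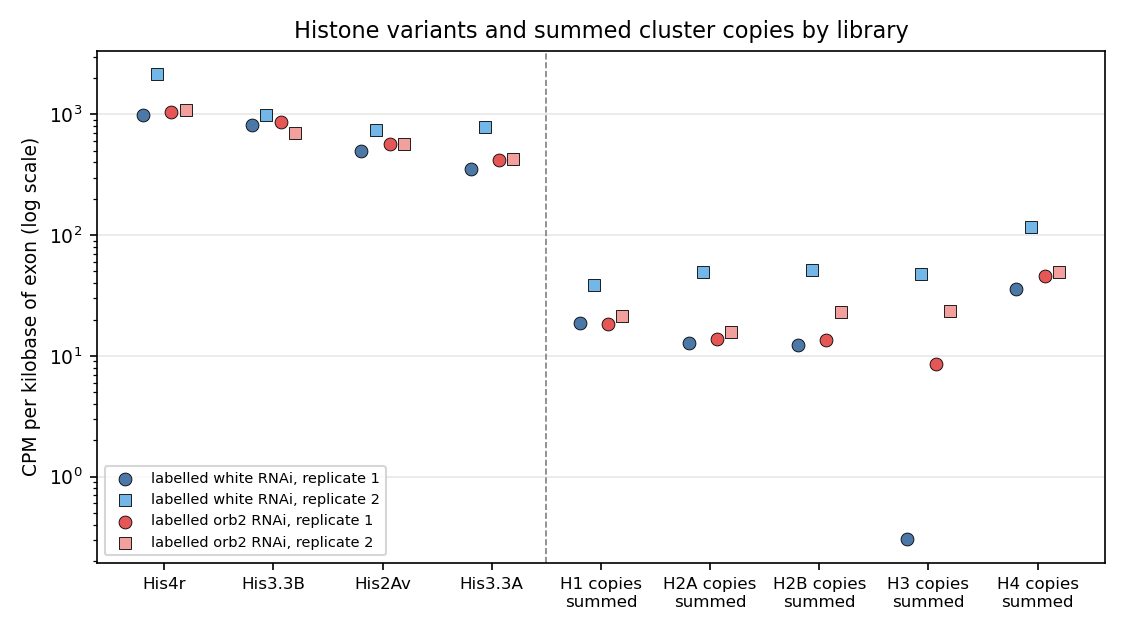
Levels of the 4 variants and of the summed copies of each cluster type, in CPM per kilobase of exon on a log scale, with 1 point per library. Every variant lies above every summed type, replicate 2 labelled *white* RNAi is the highest library for each item, and H3 in replicate 1 labelled *white* RNAi stands apart at 0.302 CPM per kilobase.

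Linker histone H1 was counted almost equally often in all libraries whatever their depth, with 1207 and 1299 reads under the *white* label and 1426 and 1259 under the *orb2* label. Scaled to depth, the H1 sum was 19.2 and 39.8 CPM, against 18.7 and 22.0 CPM. H2A and H2B, which pair as a dimer in the nucleosome, were also highest in replicate 2 labelled *white* RNAi. The H2A sum was 6.35 and 24.6 CPM under the *white* label and 6.87 and 7.83 CPM under the *orb2* label, and the H2B sum was 7.32 and 30.8 CPM, against 8.09 and 13.7 CPM. H4 summed to 14.9 and 48.0 CPM, and to 18.8 and 20.6 CPM. For each of these 4 types replicate 2 labelled *white* RNAi was the highest library and the groups overlapped.

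H3, the partner of H4 in the nucleosome, varied most between libraries. Its 23 copies summed to 10 reads in replicate 1 labelled *white* RNAi (95% Poisson interval 4.80 to 18.4), to 825 in replicate 2, and to 345 and 714 in replicates 1 and 2 labelled *orb2* RNAi. In CPM these are 0.160, 25.3, 4.52 and 12.5. In the first library 19 of the 23 copies had 0 reads, where a count of 0 allows up to 3 reads or 0.0480 CPM, and the copies with reads were *His3:CG33827* with 4 and *His3:CG33830*, *His3:CG33833* and *His3:CG33839* with 2 each. No H3 copy was at 0 in any other library, where the lowest was 6. H4, whose genes lie beside the H3 genes and are transcribed away from them, had 933 reads in the same library. The share of all cluster reads that fell on H3 was 0.333% there, 15.0% in replicate 2 labelled *white* RNAi, and 7.93% and 16.3% in the libraries labelled *orb2* RNAi. The log2 ratio of H3 to H4 reads was thus -6.54 and -0.93 under the *white* label and -2.06 and -0.72 under the *orb2* label. The corresponding ratio of H2A to H4 stayed within -1.46 to -0.97, and that of H1 to H4 within -0.27 to 0.37. *His3.3A* and *His3.3B*, the H3 variants, had no such gap, and the lowest count of either in any library was 22022 reads. The library with few H3 reads also had the highest sum of the 3 fat body genes, 3145 CPM against 174.8 to 341.2 CPM in the others. Most of this sum was *Fbp1*, at 2809 CPM. *Fbp2* and *Lsp2* were at 205.6 and 130.6 CPM there, and at most 114.3 and 107.1 CPM in the others. The part of fat body RNA in the H3 count was not tested.

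Copies of a type are close to identical, so a read can fit several of them. The sources used here do not say how such reads were counted. The value of a single copy is therefore uncertain, and copies are not replicates. Had such reads been left out, the type sums, the cluster's share and its ratios to the variants would be too low too. The extent could differ between types. Among the 20 H2A, 23 H2B and 23 H3 copies, counts spread by 1.48 to 4.83 times the Poisson variance within a library. The ranking of these copies differed between libraries. Over all pairs of libraries, Pearson's r across copies lay between -0.32 and 0.32, and Spearman's rho between -0.37 and 0.33. The order of copies was closer between libraries for H4. There the variance was 7.60 to 13.1 times the Poisson value and r between libraries, across 22 copies, was 0.77 to 0.89 (Spearman's rho 0.47 to 0.77). For H1, across 23 copies, r was 0.36 to 0.83 and rho 0.10 to 0.71, whose lower end lies within the range of the other types. These are correlations across copies that share reads and libraries, given as a description.

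Low H4 counts lay in a run of neighbouring repeat units, chosen here after the values were seen. The part of this run in the correlations between libraries was not tested. In units 7 to 11, which hold *His4:CG33899*, *His4:CG33897*, *His4:CG33895*, *His4:CG33893* and *His4:CG33891* between 21458853 and 21479454, the H4 copies had a median of 12 and 26 reads under the *white* label and 16 and 21 under the *orb2* label. The other 17 H4 copies had medians of 51 and 89, and of 80 and 62. All 5 lay below all 17 others in every library. The lowest of those 17 in every library was *His4:CG33907* in unit 3, outside the run. It had 21 and 43 reads under the *white* label and 47 and 43 under the *orb2* label. Copies of the other types in units 7 to 11 did not stand apart in this way. Over all libraries, H1 copies in units 7 to 11 had a median of 260 reads against 238.5 elsewhere, H2A 123 against 111, and H2B 125 against 118.5. For H3, which faces away from H4 in each unit, the median was 66 against 86.5, and the ranges, 56 to 74 and 71 to 114, overlapped. Of the 22 H4 copies, 17 are annotated at 413 bases, these 5 among them, and the 4 longest, of 526 to 528 bases in units 19 to 22, had 247 to 314 reads over the 4 libraries. The part of exon length and of shared reads in the H4 pattern was not tested. Among H1 copies, *His1:CG33834* in unit 13 had the lowest total over the 4 libraries, with 30 and 20 reads under the *white* label and 16 and 26 under the *orb2* label, followed by *His1:CG33855* and *His1:CG33858* in units 20 and 21. Those 3 copies had 92 to 136 reads over the 4 libraries and the other 20 had 184 to 319. Within single libraries they lay below the other 20 only in replicate 2 labelled *white* RNAi, at 17 to 23 reads against 46 to 94. In each other library the ranges overlapped.

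**Figure D2:**
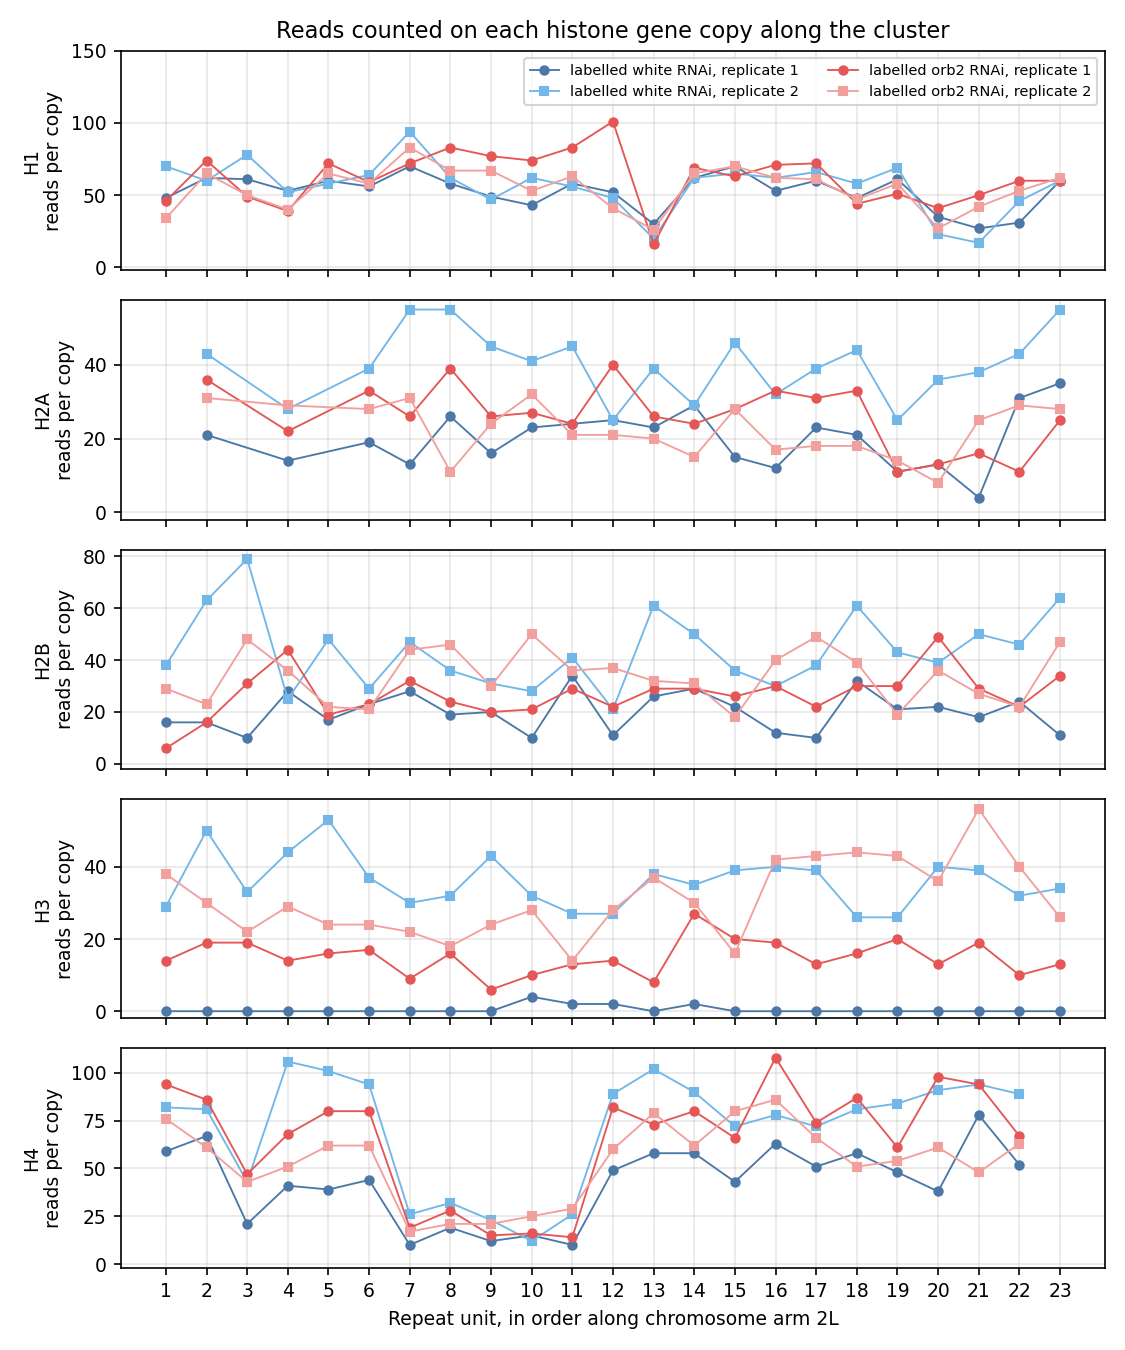
Reads counted on each cluster copy (y axis, reads per copy, 1 panel per histone type) against the repeat unit it lies in, in order along the arm (x axis), with 1 line per library. The H4 copies of units 7 to 11 are low in all 4 libraries, the H1 copy of unit 13 has 16 to 30 reads, and H3 in replicate 1 labelled *white* RNAi stays at 0 to 4 reads.

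The comparison of the labels asks whether histone transcript levels differed between them. edgeR's quasi-likelihood test was fitted to the 13082 features that passed its filter on low counts. Calls needed a log2 fold change beyond 0.5 in either direction and p under 0.05 after Benjamini-Hochberg adjustment. All 115 members passed the filter. None was called higher or lower in the libraries labelled *orb2* RNAi, where 0% of all tested features were called in either direction. None had an unadjusted p under 0.05 either, against 4.57% of all features (3.68% higher and 0.894% lower under the *orb2* label), and the smallest unadjusted p among members was 0.2045, in an H2A copy. DESeq2 called 0 members, where it called 0.863% of all features. The fitted log2 fold change of the *orb2* label over the *white* label was below 0 for 108 of the 115 members, where 47.5% of all features lay below 0. Its median was -0.71 over members and 0.02 over all features. Both rest on replicate 2 labelled *white* RNAi, without which 24 of the 111 copies and 1 of the 4 variants lay below 0 and the median over copies was 0.44.

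Among variants the log2 fold change was -0.56 for *His4r* (standard error 0.441), -0.41 for *His3.3A* (0.429), -0.21 for *His3.3B* (0.317) and -0.12 for *His2Av* (0.288). Adjusted p was 0.9998 for all 4 in edgeR's test. *His4r* had a mean of 1253 ± 658.3 CPM (SD, n = 2) under the *white* label and 852.0 ± 24.3 CPM (SD, n = 2) under the *orb2* label, a difference smaller than the SD of the former. For *His3.3B* the means were 2309 ± 304.1 and 1993 ± 273.1 CPM (SD, n = 2 each), and the groups overlapped. To make the result depend less on how reads were split among copies, the same model was fitted with the copies of each type replaced by their sum. The log2 fold change was then -0.54 for H1 (standard error 0.413), -1.07 for H2A (0.699), -0.81 for H2B (0.753), -0.58 for H3 (1.88) and -0.67 for H4 (0.588), each with adjusted p = 0.9998 in edgeR's test. The groups overlapped for all 5 sums. The H2A sum was 15.5 ± 12.9 CPM (SD, n = 2) under the *white* label and 7.35 ± 0.678 CPM (SD, n = 2) under the *orb2* label, and the H3 sum was 12.7 ± 17.8 and 8.50 ± 5.62 CPM (SD, n = 2 each).

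None of the named single copies passed the test either, and their errors were larger than those of the sums. *His1:CG33816*, the H1 copy with the highest mean, was at 1.12 and 2.87 CPM under the *white* label and 0.945 and 1.45 CPM under the *orb2* label. *His2A:CG33865* was at 0.559 and 1.68 CPM, against 0.328 and 0.490 CPM, and its groups did not overlap, but its adjusted p was 0.9998 in edgeR's test. *His2B:CG33908* was at 0.160 and 2.41 CPM, against 0.407 and 0.839 CPM. In these copies, as in the sums, the high value of the *white* label came from replicate 2. *His3:CG31613* was at 0 and 1.53 CPM under the *white* label and 0.249 and 0.525 CPM under the *orb2* label. *His3:CG33860*, at 0 and 1.19 CPM against 0.249 and 0.979 CPM, had a fitted log2 fold change of 0.06, and it reversed to -0.025 when the libraries were scaled by their upper quartiles. For H4, *His4:CG33887* was at 0.927 and 3.11 CPM, against 0.958 and 1.38 CPM. The second copies by mean level, *His1:CG33840*, *His2A:CG33820*, *His2B:CG33878* and *His4:CG33881*, had log2 fold changes of -0.59, -1.56, -1.13 and -0.21, with standard errors from 0.819 to 1.26. Without replicate 2 labelled *white* RNAi, *His1:CG33840* moved to -0.13 and *His2A:CG33820* to -0.23, and *His2A:CG33865* moved from -1.44 to -0.45. Over all members, both libraries labelled *orb2* RNAi lay below both labelled *white* RNAi for 13, where 11.7% of all features did, and above both for 1, *His1:CG33858*, where 18.5% did.

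Leaving out a single library turned the sign of most of these values. Without replicate 2 labelled *white* RNAi, the log2 fold change became 0.08 for H1, 0.21 for H2A, 0.57 for H2B and 0.41 for H4, and that of H3 became 5.72, with the 10 reads of replicate 1 as the whole *white* arm. The variants became 0.28 for *His3.3A*, 0.19 for *His2Av* and 0.11 for *His4r*, while *His3.3B* stayed below 0 at -0.07. No member was called, and adjusted p was at least 0.4932 for every member in edgeR's test. Without replicate 1 labelled *white* RNAi the log2 fold changes of the sums grew to between -0.95 for H1 and -1.72 for H2A, with 0 members called and adjusted p of 0.099 to 0.203 for the sums. Those fits have 1 library in the *white* arm, which is assumed to vary like the *orb2* arm.

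**Figure D3:**
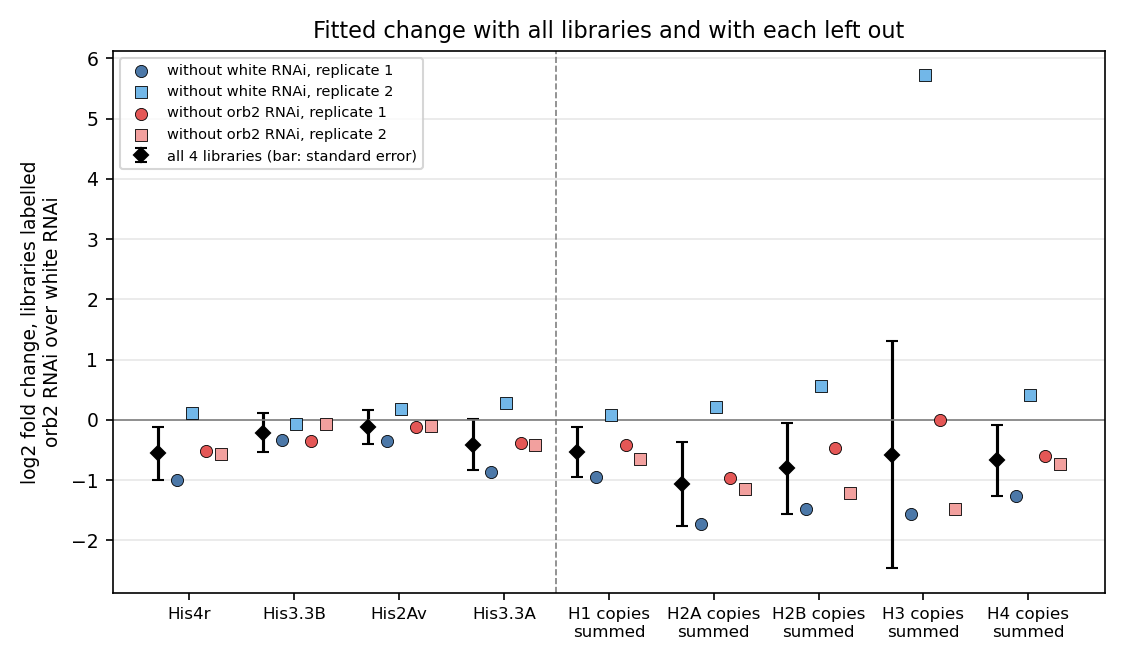
Fitted log2 fold change of each variant and of the summed copies of each type (y axis) for the *orb2* label over the *white* label, with all 4 libraries (black, bar for the standard error) and with each library left out. Leaving out replicate 2 labelled *white* RNAi moves every item up, to 5.72 for H3, and to above 0 for all items but *His3.3B*.

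Replicate 2 labelled *white* RNAi was the highest library for 107 of the 111 cluster copies and for all 4 variants, against 33.6% of all tested features. Copies of a type can share reads, so counts of copies here are not counts of separate observations. Replicate 1 of that label was the lowest for 66 copies, among them all 23 of H3, and for 3 of the 4 variants, against 27.8% of all tested features. The excess of replicate 2 over the mean of the other 3 libraries, as log2(CPM + 0.01) of the sums, was 1.00 for H1, 1.42 for H4, 1.72 for H2B, 1.81 for H2A and 3.57 for H3, whose other 3 libraries include the one with 10 reads. It was 1.06 for *His4r*, 0.98 for *His3.3A*, 0.44 for *His2Av* and 0.33 for *His3.3B*. Exon length moved with this excess among the variants, the shortest standing highest. Over the other tested features the median excess of this library, on the scale of log2(CPM + 0.5), was 0.498 for 500 to 1000 exon bases, 0.277 for 1000 to 1500 and -0.57 above 5000, but -0.129 for those up to 500, the range that holds the H2A and most H4 copies. In the range of 500 to 1000 bases this library was the highest for 55.7% of features. H2B and H3, in that same range, had median excesses of 0.935 and 1.15 on that scale over their copies. Of the 111 copies, 107 lay above the median of the other features in their range of length, as did all 4 variants. The library also had the fewest reads of the 4 and the highest sum of 5 glia markers, 1022 CPM against 548.3 to 916.0 CPM. It was the highest library for 3 of the 5 markers. *repo* was higher in both libraries labelled *orb2* RNAi, and *moody* was lowest in this library. The sum of 10 neuron markers was lowest in this library, at 2501 CPM against 3132 to 4401 CPM. It was the highest library for 0 of those 10. The part of exon length, depth, glia and neurons in the excess was not tested. Fewer cells of a type and less RNA per cell cannot be told apart in whole brains.

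**Figure D4:**
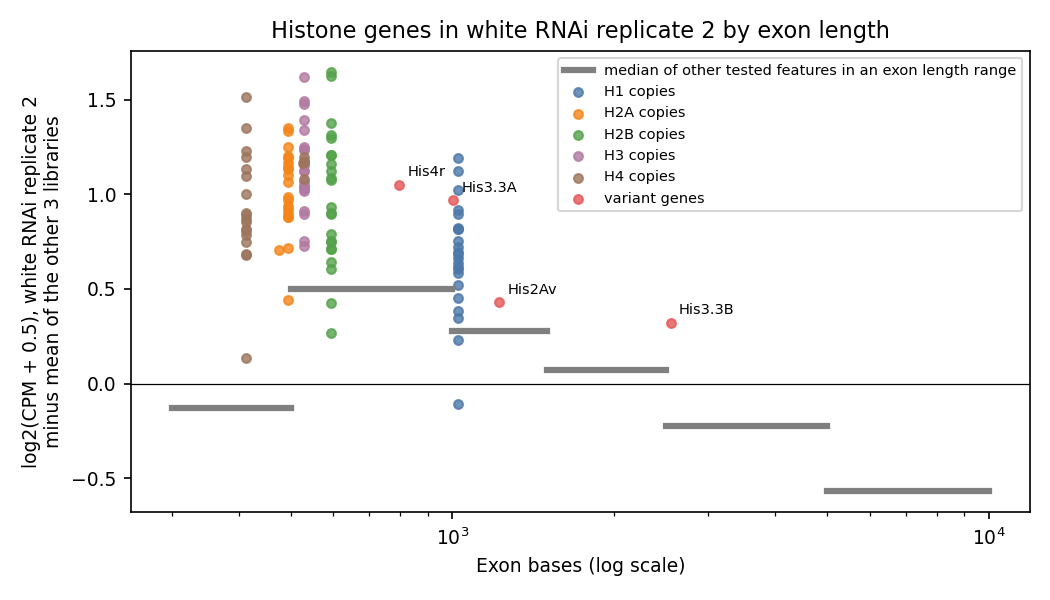
Excess of replicate 2 labelled *white* RNAi over the mean of the other 3 libraries (y axis, log2(CPM + 0.5)) against exon bases (x axis, log scale), for each cluster copy and variant, with grey bars for the median of the other tested features in each range of exon length. Of the 111 copies, 107 lie above the bar of their range, and the variants fall from *His4r* at 796 bases to *His3.3B* at 2552.

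Cluster reads were also set against variant reads within each library, which removes the scaling. The log2 ratio of all cluster reads to all variant reads was -6.32 and -5.14 under the *white* label and -6.18 and -5.63 under the *orb2* label. Variants thus had 35.3 to 80.0 times the counted reads of the cluster, without regard to length or to reads that fit several copies. The difference between the group means was -0.17 and the exact two-sided permutation test gave p = 1.0 (n = 2 per group, where the smallest p possible is 0.333), and it turned to 0.42 without replicate 2 labelled *white* RNAi and to 0.10 without replicate 1 labelled *orb2* RNAi. By family, the log2 ratio of H2A copies to *His2Av* was -6.59 and -5.20 under the *white* label and -6.67 and -6.47 under the *orb2* label. The group means differed by -0.67 (exact p = 0.667), and by 0.02 without replicate 2 labelled *white* RNAi. Those of H4 copies to *His4r* differed by 0.01 (exact p = 1.0). The log2 ratio of H4 to *His4r* was -5.72 and -5.17 under the *white* label and -5.47 and -5.40 under the *orb2* label, so it varied less between libraries than the ratio of the whole cluster to the variants. H3 copies to the H3.3 genes ranged from -13.9 to -7.04 in the libraries labelled *white* RNAi and were -9.17 and -7.48 in those labelled *orb2* RNAi. Between the variants themselves, *His3.3A* to *His3.3B* stood at -2.57 and -1.69 and at -2.37 and -2.06.

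The other genes of histone metabolism were taken from lists. Of 14 genes for histone mRNA 3′ end processing and the histone locus body, such as *Slbp*, *Lsm11* and *mxc*, none was called in edgeR's test and none had an unadjusted p under 0.05. Their summed level was 1159 and 1132 CPM under the *white* label and 1131 and 1146 CPM under the *orb2* label. The most abundant were *Ars2*, which links the cap-binding complex to RNA processing, with a log2 fold change of -0.06, and *Cbp80*, a subunit of that complex, also at -0.06. In this list 4 genes had a log2 fold change above 0 and 10 below, and replicate 2 labelled *white* RNAi was the highest library for 7. Among 14 histone chaperones, 12 had a log2 fold change above 0 and 2 below, with a median of 0.17. Of all tested features, 47.5% lay below 0. None of the chaperones was called or had an unadjusted p under 0.05. Their values without replicate 2 labelled *white* RNAi are not given here. *dre4*, a subunit of the FACT chaperone, was at 374.0 and 322.8 CPM, against 371.5 and 408.6 CPM. *Nlp*, a nucleoplasmin, was at 581.1 and 924.3 CPM, against 659.4 and 687.7 CPM. Of 8 genes for the exchange of His2Av, none was called or had an unadjusted p under 0.05, and *dom*, the ATPase that inserts it, was at 903.9 and 463.4 CPM, against 779.3 and 742.3 CPM. *dom* was thus lowest in the library in which *His2Av* was highest, and a link between them was not tested. Another gene of this list, *Bap55*, was at 137.1 and 195.0 CPM, against 162.0 and 145.2 CPM.

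Of 18 genes of S phase entry and DNA replication, none was called and none had an unadjusted p under 0.05, with a median log2 fold change of 0.04 and 10 of them above 0. Their sum was 1945 and 2539 CPM under the *white* label and 2204 and 2347 CPM under the *orb2* label. Replicate 2 labelled *white* RNAi was highest and replicate 1 lowest in this sum, as in the summed share of the cluster. Gene by gene, that replicate 2 was highest for 10 of the 18 and replicate 1 lowest for 11. *E2f1*, the transcription factor that drives S phase genes, did not follow this order, at 363.5 and 322.4 CPM, against 428.7 and 364.0 CPM. Its partner *Dp* was at 242.8 and 258.8 CPM, against 254.8 and 242.5 CPM. The neuroblast markers summed to 506.0 and 567.9 CPM under the *white* label and 607.3 and 549.5 CPM under the *orb2* label. The library with the most cluster reads thus did not have the highest sum. Gene by gene, however, it was the highest library for 4 of the 7 markers. The part of dividing cells in the cluster's level was not tested.

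Of 10 other histone rows, 5 were tested and none was called or had an unadjusted p under 0.05. *cid*, which encodes the centromeric H3 variant, was at 8.22 and 7.29 CPM under the *white* label and 6.79 and 8.38 CPM under the *orb2* label, with a log2 fold change of -0.03 (standard error 0.368). *BigH1*, the linker histone of the early embryo and germ line, had 30 reads in replicate 2 labelled *white* RNAi, or 0.915 CPM, and 0 in the other libraries, where a count of 0 allows up to 0.0394 to 0.0525 CPM. The 8 histone pseudogene rows, which lie in or beside the cluster, summed to 74 to 106 reads in a library. The most counted, *His-Psi:CR33867*, was at 0.575 and 1.10 CPM, against 0.591 and 0.664 CPM, with a log2 fold change of -0.41.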

How the data were processed

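Brains labelled *white* RNAi or *orb2* RNAi gave 4 libraries, 2 per label. The authors trimmed reads with TrimGalore!, aligned them with HISAT2 to BDGP6.32 and counted them per feature with featureCounts. The deposited values are these raw counts, without normalization. Settings for strand, pairs and reads with several alignments are not given in the sources used here, and the labels and the study's methods name different TruSeq kits. Symbols came from FlyBase identifiers. Positions and exon lengths came from BDGP6.54 (Ensembl release 115), a later annotation of the same assembly.

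The comparison used edgeR 4.0.16 under R 4.3.3 (TMM scaling, filterByExpr, quasi-likelihood test), and p-values were adjusted over all features. CPM are TMM-scaled. Alternatives were DESeq2 1.42.0, other scalings, filters and thresholds, a block for the replicate number, and leaving out each library. Text names all variants, each summed type, the 2 copies per type with the highest mean CPM, and the 2 highest genes and any with an unadjusted p under 0.05 from each list of histone or S phase genes. Marker lists are given mainly as sums. Members and lists were chosen with earlier results of these data known. Depth was 34610836 to 75412298 reads, and spread between replicates sets the precision. No sequence of these genes was used here.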

Additional observations from a re-analysis of the deposited data

How the results depend on the processing

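With 2 libraries a label, the spread between replicates limits every comparison, and single copies rest on few reads. Under no alternative was any histone gene called. Of all features 0 were called in edgeR's test with every library (598 at an unadjusted p under 0.05), 73 with the replicate block, 127 by DESeq2, 38 by DESeq2 with its prior, and 0 to 136 with one library left out.

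The replicate numbers mark no shared source in the labels (correlation of deviations 0.228 over 2 pairs). With that block the log2 fold change turned to 1.65 for the H3 sum and 1.48 for *His3:CG31613*. With upper quartile scaling that of *His3:CG33860* turned to -0.025. The cause was not tested.

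Leaving out each library in turn, the log2 fold change ranged from -0.95 to 0.079 for the H1 sum, -1.72 to 0.21 for H2A, -1.48 to 0.57 for H2B, -1.56 to 5.72 for H3 and -1.27 to 0.41 for H4. Among variants it ranged from -0.86 to 0.28 for *His3.3A*, -0.999 to 0.11 for *His4r* and -0.35 to 0.19 for *His2Av*. Among copies it ranged from -1.25 to 0.10 for *His1:CG33816*, -1.94 to 1.94 for *His2B:CG33908*, -1.78 to 0.068 for *His2B:CG33878*, -1.40 to 0.33 for *His4:CG33887* and -0.69 to 0.54 for *His4:CG33881*. The copies *His1:CG33840* (-0.94 to -0.13), *His2A:CG33865* (-2.02 to -0.45) and *His2A:CG33820* (-2.41 to -0.23) and the variant *His3.3B* (-0.35 to -0.069) kept their sign. For *His3:CG33860* (-1.23 to 8.32) and *His3:CG31613* (-1.97 to 7.66) the upper value is set against a single library at 0 reads, depends on the prior count and is no bound. The difference in the log2 ratio of cluster to variant reads ranged from -0.76 to 0.42. With leaving-out chosen after seeing the data, that of H2A to *His2Av* ranged from -1.37 to 0.020 and that of H4 to *His4r* from -0.27 to 0.29. Over all alternatives, 226 values kept their direction and side of the threshold, 24 turned sign, and 6 counts over all features rose from 0.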
